A study of Mus musculus with 36 samples.

Results

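The Slc25 genes encode the mitochondrial carriers, a family of small proteins of the inner membrane that pass nucleotides, phosphate, carboxylic acids, amino acids, cofactors and iron between the cytosol and the mitochondrial matrix. A carrier takes up its substrate on one side of the membrane, changes shape and releases it on the other, often in exchange for another substrate. In muscle the family is best known for the ADP/ATP carriers, which export newly made ATP, and for the carriers that bring phosphate, reducing equivalents and fatty acids to the matrix. The members were all 47 gene symbols made of Slc25a and a number, of 21156 genes in the table, and the reads of their 70 transcripts were summed per symbol. Of the members, 41 had enough reads to be tested, among 15031 genes tested in all. The 6 others were Slc25a21, with 157.0 reads over the 36 libraries together, Slc25a43 with 106.0, Slc25a31 with 50, Slc25a41 with 9, Slc25a48 with 7 and Slc25a54 with 1.

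The tissue was the soleus, a slow postural muscle of the lower leg. It came from 36 male mice of the strain C57BL/6J, each giving 1 library of total RNA. Old mice were 22 to 24 months of age: 4 were reloaded for 3 days after 10 days of hind limb unloading, 6 were unloaded for 10 days and 9 were controls. Young mice were 6 months of age, with 4 reloaded, 4 unloaded and 9 control mice. All ate standard chow and were fasted for 4 hours before the muscle was taken. Between 32.0 and 37.9 M reads per library fell on genes. Each of 9 fibre markers was detected, with a sum of at least 60256 CPM (reads per M reads of the library) in every library. Liver transcripts stood apart in some libraries: Alb exceeded 20 CPM in 6, at 1743 CPM in old reloaded mouse 2, 153.6 CPM in old reloaded mouse 4, and 29.8 to 72.5 CPM in old unloaded mouse 6, young reloaded mice 1 and 2 and young unloaded mouse 2. Changes are log2 fold changes ± SE, and calls rest on edgeR's quasi-likelihood test with an adjusted p under 0.05 (Benjamini-Hochberg, over all genes tested). Of 155 calls made for members over 12 comparisons, 118 held whichever library was left out. In whole muscle, fewer cells of a type and less RNA per cell cannot be told apart.

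Levels of different genes can be compared only per transcript length, as RPKM (reads per kilobase of transcript and M reads). Slc25a4, the ADP/ATP carrier of heart and skeletal muscle, averaged 1825 ± 77.0 RPKM in young controls (SD, n = 9). Slc25a3, which imports the phosphate for ATP synthesis, followed at 317.5 ± 14.6 RPKM. Next came Slc25a11, which exchanges malate for oxoglutarate, at 94.7 ± 6.45 RPKM, and Slc25a12, an aspartate-glutamate carrier, at 90.9 ± 6.29 RPKM, and the difference between these neighbours was within their spread. Slc25a20, the carnitine-acylcarnitine carrier, averaged 38.6 ± 4.59 RPKM, and Slc25a5, the ADP/ATP carrier of many other tissues, 28.1 ± 5.09 RPKM. Slc25a4 took 70.7% ± 0.964 of the summed Slc25 RPKM in old controls and 72.1% ± 0.381 in young controls. The members together took 0.262% ± 0.0193 of the reads in old reloaded mice, 0.358% ± 0.0199 in old unloaded mice and 0.449% ± 0.0562 in old controls (SD, n = 4, 6 and 9). In young mice the share of reads was 0.304% ± 0.0272 in reloaded mice, 0.359% ± 0.0132 in unloaded mice and 0.524% ± 0.0213 in controls (SD, n = 4, 4 and 9).

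**Figure D1:**
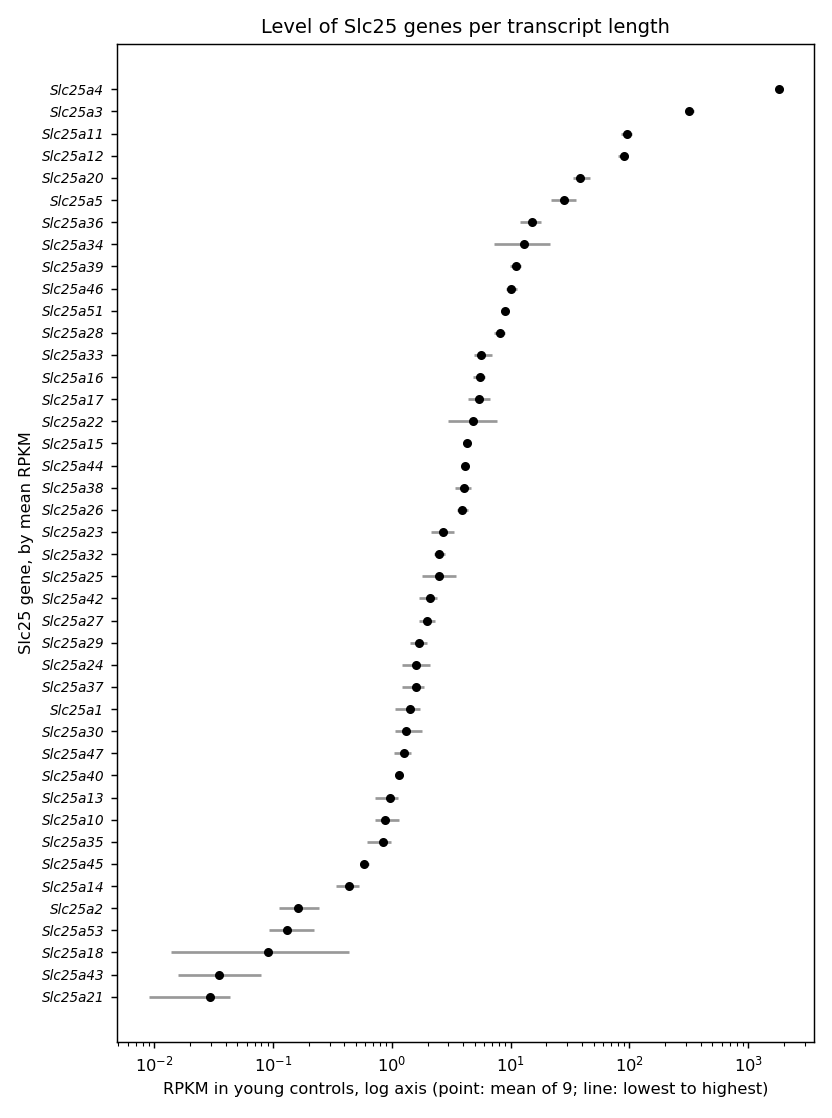
Level of Slc25 genes in young controls, in RPKM on a log axis; points are the means of 9 mice and lines run from the lowest to the highest mouse. Slc25a4 stands at the top, with Slc25a3 next.

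The promoters of a few members are shown for their place in the results. Slc25a4, Slc25a3 and Slc25a5 are the ADP/ATP and phosphate carriers, and Slc25a34 had the lowest fold change on unloading in young mice. Slc25a1 was called for an age difference in the response to reloading. That call was lost on leaving out any 1 of 6 libraries. Each window runs from 250 bases before to 50 bases after the transcription start, in the direction of the gene (RefSeq, GRCm38.p6), and capitals mark matches to the motifs searched.
Slc25a4 (chr8:46211013-46211312, minus strand): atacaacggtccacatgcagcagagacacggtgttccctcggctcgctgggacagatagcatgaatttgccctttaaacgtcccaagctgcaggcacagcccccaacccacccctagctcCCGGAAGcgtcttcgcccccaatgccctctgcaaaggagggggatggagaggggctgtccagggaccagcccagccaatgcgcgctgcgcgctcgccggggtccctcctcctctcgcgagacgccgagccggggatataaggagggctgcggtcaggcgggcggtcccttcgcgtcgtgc
Slc25a3 (chr10:91123918-91124217, minus strand): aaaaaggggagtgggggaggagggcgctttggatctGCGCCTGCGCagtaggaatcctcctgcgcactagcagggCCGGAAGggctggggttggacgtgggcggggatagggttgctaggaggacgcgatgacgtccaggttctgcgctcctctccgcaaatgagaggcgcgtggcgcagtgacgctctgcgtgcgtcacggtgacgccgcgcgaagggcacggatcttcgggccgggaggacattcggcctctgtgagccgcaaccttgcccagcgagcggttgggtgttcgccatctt
Slc25a5 (chrX:36795347-36795646, plus strand): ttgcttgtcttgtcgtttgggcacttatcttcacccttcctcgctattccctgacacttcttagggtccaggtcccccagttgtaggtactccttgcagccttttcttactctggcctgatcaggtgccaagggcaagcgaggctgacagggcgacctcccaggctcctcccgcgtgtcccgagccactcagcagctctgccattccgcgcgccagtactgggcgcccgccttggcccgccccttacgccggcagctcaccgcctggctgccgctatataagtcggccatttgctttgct
Slc25a34 (chr4:141623785-141624084, minus strand): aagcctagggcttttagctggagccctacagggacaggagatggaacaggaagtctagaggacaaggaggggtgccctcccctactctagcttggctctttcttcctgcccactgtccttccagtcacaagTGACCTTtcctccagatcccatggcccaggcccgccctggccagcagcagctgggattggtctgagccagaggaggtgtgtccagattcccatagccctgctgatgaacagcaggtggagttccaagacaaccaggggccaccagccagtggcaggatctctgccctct
Slc25a1 (chr16:17928170-17928469, minus strand): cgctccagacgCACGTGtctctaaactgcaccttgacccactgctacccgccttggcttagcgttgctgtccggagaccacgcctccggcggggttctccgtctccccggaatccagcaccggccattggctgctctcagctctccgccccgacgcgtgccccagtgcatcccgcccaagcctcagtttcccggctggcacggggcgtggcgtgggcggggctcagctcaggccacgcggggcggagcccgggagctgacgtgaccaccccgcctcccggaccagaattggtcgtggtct
Slc25a4 holds CCGGAAG, a core bound by ETS factors such as GABP, 130 bases before its start. Slc25a3 holds CCGGAAG 175 bases before its start and an NRF1 element (GCGCA and GCGC with any 1 base between them) on the opposite strand 214 bases before it, so that the letters printed are its reverse complement. Slc25a34 holds AAGGTCA, a nuclear receptor half-site as in ERR elements, on the opposite strand 119 bases before its start, and Slc25a1 holds an E-box, CACGTG, 239 bases before its start. The window of Slc25a5 holds none of these, nor the forkhead element GTAAACA that was also searched. Unlike in the other windows shown, the 50 bases after the start of Slc25a5 were not matched to its transcripts, so its start is uncertain. Both strands were searched, and no match overlapped a match to another motif. Windows were found for 36 of the 47 members, 46 in all. CCGGAAG was in 15.2% of them, against 8.86% of 32851 windows of all genes, and CACGTG was in 17.4% against 7.15%. The other shares were 4.35% against 4.60% for the NRF1 element, 2.17% against 4.72% for AAGGTCA, and 0% against 3.65% for GTAAACA. Windows of the same gene can overlap. The same CACGTG site of Slc25a14 was counted in more than 1 window, 54 and 184 bases before the respective starts. A match is a run of letters in the window, and binding was not measured.

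Unloading lowered more carriers than it raised. In old unloaded mice against old controls, 5 of the 41 members were called higher and 16 lower, where 19.5% and 23.2% of all tested genes were (42.7% in either direction). In young unloaded mice against young controls, 4 were called higher and 18 lower, where 19.1% and 21.7% of all tested genes were (40.8% in either direction). At both ages 15 members fell and 3 rose, where 16.9% and 13.5% of all tested genes did, and those that rose were Slc25a16, Slc25a27 and Slc25a28. The median log2 fold change over the members was -0.06 in old and -0.20 in young mice, where that over all genes tested was -0.0029 and 0.004. Among 80 subunits of the respiratory complexes, 72 fell in old mice (median -0.46) and 76 in young mice (median -0.61), and among 78 mitochondrial ribosomal proteins 67 fell in old and 70 in young mice. The response to unloading differed between the ages for 0 members in edgeR, where 0% of all genes were called. Of the members, 6 had an unadjusted p under 0.05 there, the smallest edgeR adjusted p was 0.272 (Slc25a33), and DESeq2 also called 0.

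Markers of other cells also moved with unloading. Of all tested genes, 19.5% were called higher and 23.2% lower in old unloaded mice, and 19.1% and 21.7% in young unloaded mice. The 5 fibroblast markers summed to 473.2 to 641.7 CPM in old unloaded mice and 457.8 to 795.9 CPM in old controls, with 1 called higher and 3 lower. In young mice they summed to 738.0 to 848.6 CPM in unloaded mice and 1025 to 1841 CPM in controls, without overlap, with 0 higher and 3 lower. The 6 endothelial markers summed to 261.1 to 316.2 CPM in old unloaded mice and 296.8 to 428.6 CPM in old controls (0 higher, 2 lower), and to 361.2 to 398.9 CPM in young unloaded mice and 406.0 to 456.8 CPM in young controls (1 higher, 2 lower). The 7 macrophage markers summed to 107.5 to 153.0 CPM in old unloaded mice and 72.0 to 104.6 CPM in old controls (4 higher, 0 lower), and to 75.1 to 106.6 CPM in young unloaded mice and 64.0 to 143.5 CPM in young controls (0 higher, 1 lower). Of 8 markers of proliferating cells, 0 fell in old and 6 in young unloaded mice. Their part in the changes of the carriers on unloading was not tested.

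Reloading for 3 days moved carriers in both directions. In old reloaded against old unloaded mice, 12 members were called higher and 12 lower, where 27.8% and 23.5% of all tested genes were (51.3% in either direction). In young reloaded against young unloaded mice, 7 were higher and 11 lower, where 26.4% and 21.5% of all tested genes were (47.9% in either direction). At both ages 6 members rose (Slc25a5, Slc25a13, Slc25a23, Slc25a24, Slc25a39 and Slc25a45) and 10 fell (Slc25a4, Slc25a12, Slc25a16, Slc25a17, Slc25a27, Slc25a28, Slc25a33, Slc25a38, Slc25a44 and Slc25a51), where 19.0% and 16.5% of all tested genes did. Without the libraries with Alb above 20 CPM, the rise of Slc25a45 in old mice and the fall of Slc25a17 in young mice, at -0.38 ± 0.19 (edgeR adjusted p = 0.108), missed the threshold. The fall of Slc25a51 in young mice, at -0.14, was lost on leaving out any 1 of 3 libraries. The rises of Slc25a5 and Slc25a24 in old mice were each lost without old reloaded mouse 3. Against controls, old reloaded mice had 7 members higher and 19 lower, where 21.8% and 21.1% of all tested genes were (42.9% in either direction). Young reloaded mice had 5 higher and 20 lower than young controls, where 26.8% and 22.9% of all tested genes were (49.6% in either direction). At both ages 16 members were lower than in controls and 4 higher, where 15.6% and 14.9% of all tested genes were. Those higher were Slc25a10, Slc25a14, Slc25a24 and Slc25a45. Each lost the call at 1 age or both when libraries were left out. Slc25a10 lost it at both ages without the libraries with Alb above 20 CPM. Slc25a4 and Slc25a16 were called in all 6 of these loading comparisons, as were 5.60% of all tested genes. Comparisons within an age share groups, and unloading and reloading share the unloaded mice, so these calls are not independent. At least 1 call was made for 36 of the 41 members and for 83.8% of all tested genes.

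**Figure D2:**
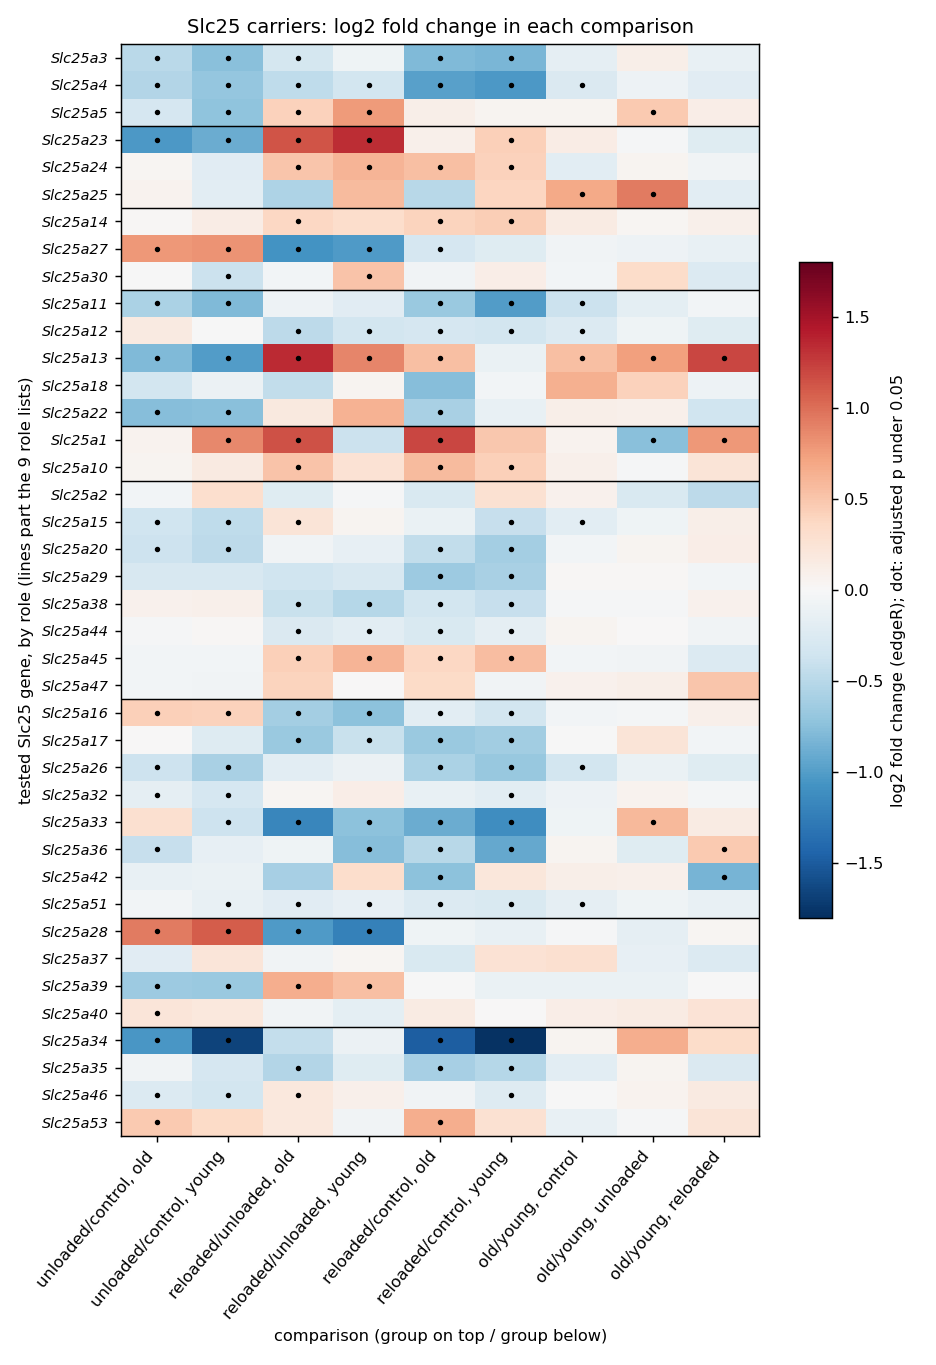
Log2 fold change of 40 of the 41 tested Slc25 genes in 9 comparisons, grouped by role, with a dot where the adjusted p was under 0.05. Most dots lie in the loading comparisons. Slc25a27 and Slc25a28 change sign between unloading and reloading, which share the unloaded mice.

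**Figure D3:**
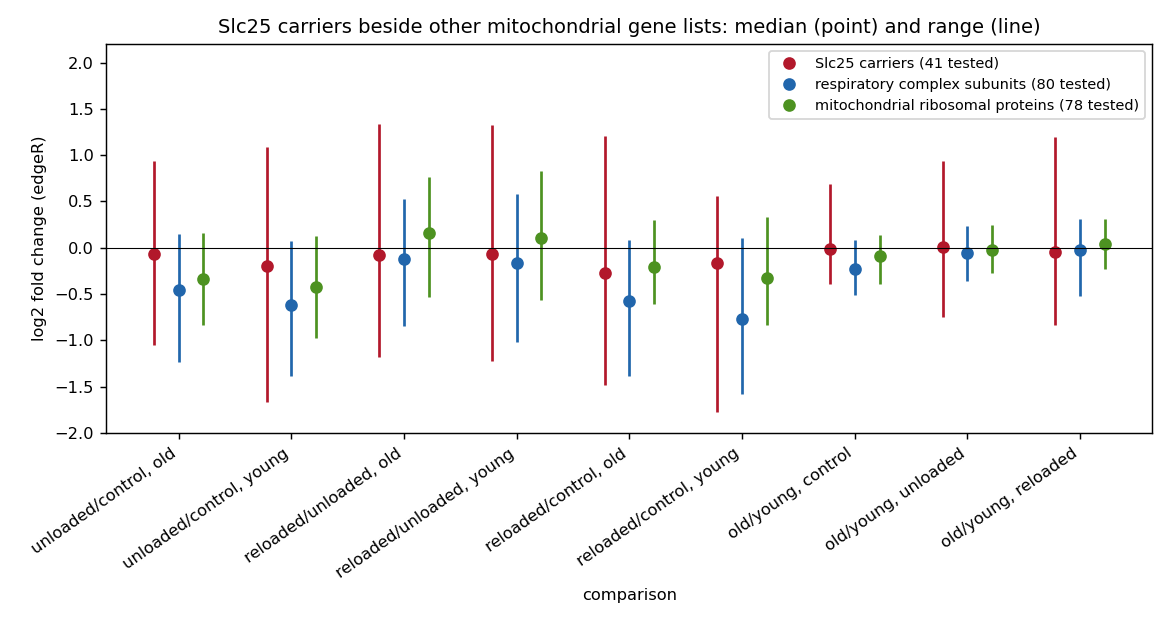
Median and range of the log2 fold change of the Slc25 genes, the respiratory complex subunits and the mitochondrial ribosomal proteins in 9 comparisons. Under unloading the medians of the other lists lie below the Slc25 median at both ages.

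All 3 tested ADP/ATP and phosphate carriers fell with unloading at both ages. Slc25a4 had 1192, 1423, 1248 and 1431 CPM in old reloaded mice, 1574 to 2127 CPM (median 1781) in old unloaded mice and 1996 to 3049.6 CPM (median 2608) in old controls. In young mice it had 1353, 1757, 1368 and 1634 CPM in young reloaded mice, 1909, 1987, 1922 and 1900.5 CPM in young unloaded mice and 2952 to 3291 CPM (median 3105) in young controls. Every reloaded mouse lay below every unloaded mouse of its age, and every young unloaded mouse below every young control, while old unloaded mice and old controls overlapped. Unloading lowered Slc25a4, at -0.53 ± 0.08 (edgeR adjusted p = 1.32e-06) in old and -0.69 ± 0.09 (edgeR adjusted p = 1.81e-07) in young mice. Reloading gave a further -0.45 ± 0.09 (edgeR adjusted p = 0.000149) in old and -0.34 ± 0.10 (edgeR adjusted p = 0.00667) in young mice, so that reloaded mice stood at -0.98 ± 0.09 against old controls and -1.03 ± 0.09 against young controls.

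Slc25a3 had 341.1, 428.4, 363.2 and 388.5 CPM in old reloaded mice, 382.9 to 621.4 CPM (median 458.0) in old unloaded mice and 512.7 to 797.9 CPM (median 651.5) in old controls. In young mice it had 353.5, 501.1, 385.8 and 433.8 CPM in young reloaded mice, 440.5, 446.5, 423.6 and 449.3 CPM in young unloaded mice and 704.3 to 805.9 CPM (median 737.1) in young controls. Old unloaded mice overlapped old controls, and all young unloaded mice lay below all young controls. Slc25a3 fell with unloading, at -0.48 ± 0.09 (edgeR adjusted p = 3.82e-05) in old and -0.75 ± 0.10 (edgeR adjusted p = 4.74e-07) in young mice. The further fall on reloading in old mice, -0.31 ± 0.11 (edgeR adjusted p = 0.0158), missed the threshold without old unloaded mouse 1, at -0.22 ± 0.10 (edgeR adjusted p = 0.0676), or without old reloaded mouse 1, at -0.27 ± 0.12 (edgeR adjusted p = 0.0608).

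Slc25a5 moved the other way from Slc25a4 on reloading. It had 59.4, 52.9, 78.3 and 60.3 CPM in old reloaded mice, 43.2 to 50.4 CPM (median 46.5) in old unloaded mice and 42.7 to 69.1 CPM (median 57.9) in old controls. In young mice Slc25a5 had 70.0, 43.4, 65.3 and 52.7 CPM in young reloaded mice, 34.8, 33.4, 31.5 and 36.1 CPM in young unloaded mice and 44.4 to 72.0 CPM (median 51.3) in young controls. Every reloaded mouse lay above every unloaded mouse of its age, and reloaded mice overlapped controls. Reloading raised it by 0.42 ± 0.13 (edgeR adjusted p = 0.00723) in old and 0.77 ± 0.14 (edgeR adjusted p = 4.4e-05) in young mice, and the old value was 0.29 ± 0.14 (edgeR adjusted p = 0.0827) without old reloaded mouse 3. Unloading had lowered it, at -0.31 ± 0.11 (edgeR adjusted p = 0.0205) in old and -0.73 ± 0.13 (edgeR adjusted p = 2.02e-05) in young mice, and with controls numbered 1 to 6 the old value was -0.24 ± 0.11 (edgeR adjusted p = 0.102). Against controls, reloaded mice gave 0.11 ± 0.12 in old and 0.04 ± 0.12 in young mice, neither called. Per length, Slc25a5 made up 3.93% ± 0.874 of Slc25a4 plus Slc25a5 in old reloaded mice, 2.18% ± 0.251 in old unloaded mice and 1.90% ± 0.401 in old controls (SD, n = 4, 6 and 9). This share was 3.22% ± 1.02 in young reloaded mice, 1.48% ± 0.101 in young unloaded mice and 1.51% ± 0.225 in young controls (SD, n = 4, 4 and 9). Of the 50-base stretches of its transcripts, 46.6% also occur in transcripts of other genes, so its level is uncertain.

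The same markers moved with reloading. Of all tested genes, 27.8% were called higher in old reloaded than in old unloaded mice, and 26.4% in young mice. The 7 macrophage markers summed to 153.0 to 247.4 CPM in old reloaded and 107.5 to 153.0 CPM in old unloaded mice, and to 100.3 to 228.2 CPM in young reloaded and 75.1 to 106.6 CPM in young unloaded mice; 5 of them rose in old and 7 in young mice. The 8 markers of proliferating cells summed to 11.4 to 40.3 CPM in old reloaded and 2.93 to 8.46 CPM in old unloaded mice, and to 26.1 to 92.7 CPM in young reloaded and 1.52 to 3.34 CPM in young unloaded mice; 7 rose in old and 8 in young mice. The 5 fibroblast markers summed to 576.3 to 2106 CPM in old reloaded and 473.2 to 641.7 CPM in old unloaded mice, and to 1323 to 2214 CPM in young reloaded and 738.0 to 848.6 CPM in young unloaded mice; 3 rose in old and 3 in young mice. None of these markers was at 0 in every library, and their part in the changes of the carriers on reloading was not tested.

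**Figure D4:**
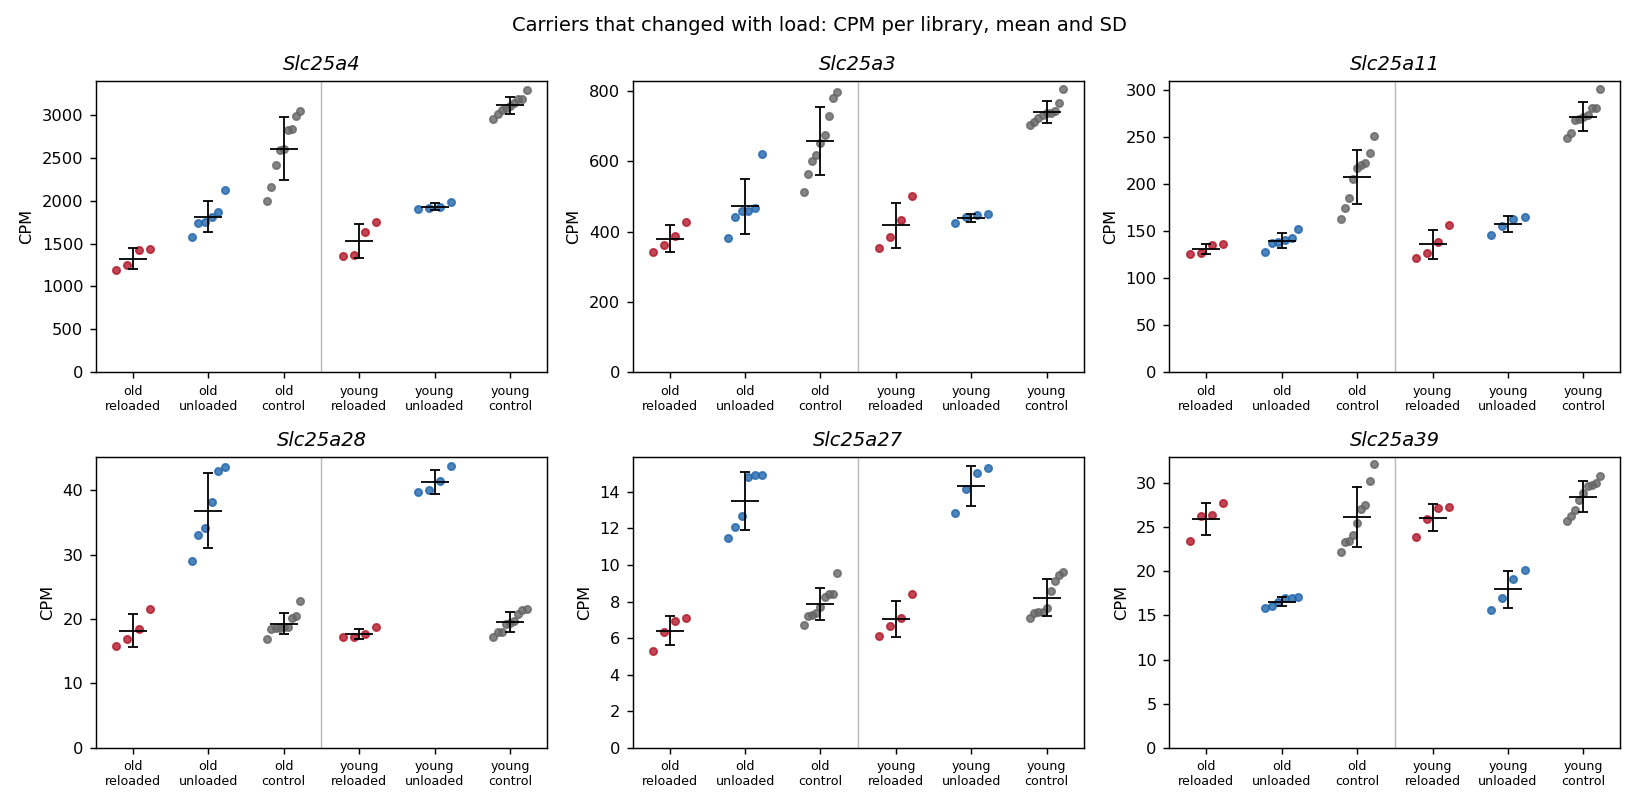
CPM of 6 carriers in every library, with reloaded left of unloaded left of control mice at each age; points are mice and bars the mean and SD. Slc25a4, Slc25a3 and Slc25a11 are lower in unloaded and reloaded mice than in controls, Slc25a28 and Slc25a27 are highest in unloaded mice, and Slc25a39 is lowest there.

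Among the iron and glutathione carriers, Slc25a28 and Slc25a39 moved in opposite directions. Slc25a28 (mitoferrin 2), which brings iron into mitochondria of tissues outside the red cell line, had the highest fold change of the members called on unloading at each age. It had 18.5, 21.6, 15.8 and 17.0 CPM in old reloaded mice, 29.1 to 43.7 CPM (median 36.2) in old unloaded mice and 16.8 to 22.7 CPM (median 18.7) in old controls. In young mice Slc25a28 had 18.8, 17.2, 17.2 and 17.7 CPM in young reloaded mice, 40.0, 39.8, 43.8 and 41.5 CPM in young unloaded mice and 17.2 to 21.6 CPM (median 19.4) in young controls. Every unloaded mouse lay above every reloaded and every control mouse of its age. The rise was 0.94 ± 0.07 (edgeR adjusted p = 1.97e-11) in old and 1.08 ± 0.08 (edgeR adjusted p = 8.69e-12) in young mice, and the fall on reloading was -1.02 ± 0.09 in old and -1.22 ± 0.10 in young mice. Reloaded mice gave -0.08 ± 0.09 against old controls and -0.14 ± 0.09 against young controls, neither called.

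Slc25a39, which imports glutathione into mitochondria, did the reverse. It had 27.7, 26.2, 23.5 and 26.4 CPM in old reloaded mice, 15.8 to 17.1 CPM (median 16.7) in old unloaded mice and 22.1 to 32.2 CPM (median 25.5) in old controls. In young mice Slc25a39 had 25.95, 27.3, 27.2 and 23.9 CPM in young reloaded mice, 19.1, 20.1, 16.9 and 15.6 CPM in young unloaded mice and 25.7 to 30.8 CPM (median 28.9) in young controls. Every unloaded mouse lay below every reloaded and every control mouse of its age. Unloading lowered it, at -0.66 ± 0.07 (edgeR adjusted p = 2.68e-09) in old and -0.66 ± 0.08 (edgeR adjusted p = 2.91e-08) in young mice, and reloading raised it by 0.65 ± 0.08 in old and 0.54 ± 0.09 in young mice. The difference between the ages in the response to unloading was -0.15 ± 0.11 for Slc25a28 and 0.01 ± 0.10 for Slc25a39, neither called. Slc25a37 (mitoferrin 1), the iron carrier of red cell precursors, gave -0.21 ± 0.14 in old and 0.22 ± 0.16 in young unloaded mice, neither called. Slc25a40, a relative of Slc25a39, gave 0.21 ± 0.09 (edgeR adjusted p = 0.0482) in old unloaded mice, a call lost on leaving out any 1 of 10 libraries. Of 9 red cell markers, 9 fell in old unloaded mice, where 23.2% of all tested genes did. They summed to 100.5 to 232.3 CPM against 171.6 to 644.6 CPM in old controls. In young unloaded mice 0 of 9 fell, where 21.7% of all tested genes did. The sums were 246.8 to 337.9 CPM against 158.2 to 309.4 CPM in young controls. The part of red cells in these values was not tested.

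Slc25a27 (UCP4), a carrier related to the uncoupling proteins, also peaked under unloading. It had 6.92, 7.08, 5.31 and 6.35 CPM in old reloaded mice, 11.5 to 14.9 CPM (median 13.7) in old unloaded mice and 6.72 to 9.54 CPM (median 7.70) in old controls. In young mice Slc25a27 had 6.14, 8.43, 6.64 and 7.08 CPM in young reloaded mice, 14.1, 12.9, 15.0 and 15.3 CPM in young unloaded mice and 7.08 to 9.61 CPM (median 7.65) in young controls. All unloaded mice lay above all reloaded and control mice of their age. It rose by 0.78 ± 0.08 (edgeR adjusted p = 8.08e-09) in old and 0.81 ± 0.10 (edgeR adjusted p = 3.17e-08) in young unloaded mice and fell on reloading, at -1.07 ± 0.11 in old and -1.02 ± 0.12 in young mice. Old reloaded mice stood at -0.30 ± 0.10 (edgeR adjusted p = 0.0184) against old controls, or -0.22 ± 0.11 (edgeR adjusted p = 0.117) without old reloaded mouse 3. Slc25a30, another relative, gave -0.39 ± 0.14 (edgeR adjusted p = 0.0212) on unloading and 0.51 ± 0.16 (edgeR adjusted p = 0.00711) on reloading in young mice. Without young unloaded mouse 2 these were -0.26 ± 0.14 (edgeR adjusted p = 0.149) and 0.37 ± 0.16 (edgeR adjusted p = 0.0554), and without young unloaded mouse 1 the first was -0.30 ± 0.15 (edgeR adjusted p = 0.118). Slc25a14 (UCP5) lay between 0.714 and 1.74 CPM in all libraries. Among relatives under other symbols, Ucp2 gave 1.31 ± 0.22 (edgeR adjusted p = 1.3e-05) in old and 0.61 ± 0.26 (edgeR adjusted p = 0.0552) in young unloaded mice. Ucp3, the uncoupling protein of muscle, gave 0.71 ± 0.26 (edgeR adjusted p = 0.0238) in old and -0.03 ± 0.29 (edgeR adjusted p = 0.958) in young unloaded mice. The difference between the ages was 0.70 ± 0.35 for Ucp2 and 0.74 ± 0.40 for Ucp3, neither called.

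Carriers of the malate-aspartate shuttle, which moves reducing equivalents into mitochondria, differed by member. Slc25a11 had 135.1, 125.3, 126.4 and 136.6 CPM in old reloaded mice, 128.0 to 151.9 CPM (median 139.3) in old unloaded mice and 162.7 to 251.5 CPM (median 216.9) in old controls. In young mice Slc25a11 had 121.6, 156.6, 127.1 and 138.6 CPM in young reloaded mice, 165.3, 162.3, 145.8 and 155.5 CPM in young unloaded mice and 248.5 to 300.5 CPM (median 271.2) in young controls. All unloaded and reloaded mice lay below all controls of their age. Unloading lowered it, at -0.57 ± 0.07 (edgeR adjusted p = 5.6e-08) in old and -0.79 ± 0.08 (edgeR adjusted p = 2.43e-09) in young mice. Reloading gave -0.10 ± 0.08 in old and -0.21 ± 0.09 in young mice, neither called, and reloaded mice stood at -0.67 ± 0.08 against old controls and -0.9993 ± 0.08 against young controls. The difference between the ages in reloaded against control mice was 0.33 ± 0.11 (edgeR adjusted p = 0.0708). In that comparison edgeR called 0 members, where the background was 4.82% of genes tested, with 2.32% up and 2.49% down, and 8 members had an unadjusted p under 0.05. DESeq2 called 1 member there, Slc25a11, and edgeR called 2 with controls numbered 1 to 6 alone, Slc25a11 at 0.47 ± 0.11 and Slc25a20 at 0.41 ± 0.11. Leaving out single libraries gave 0 to 2 calls.

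The aspartate-glutamate carriers of this shuttle are Slc25a12 (aralar, the form of muscle and brain) and Slc25a13 (citrin, best known in liver). Slc25a12 had 258.0, 340.0, 248.6 and 273.2 CPM in old reloaded mice, 348.6 to 428.6 CPM (median 386.4) in old unloaded mice and 271.7 to 406.7 CPM (median 341.9) in old controls. In young mice Slc25a12 had 296.1, 374.8, 297.1 and 337.7 CPM in young reloaded mice, 363.7, 424.5, 424.0 and 421.8 CPM in young unloaded mice and 362.4 to 439.5 CPM (median 420.5) in young controls. All old reloaded mice lay below all old unloaded mice. Unloading gave 0.17 ± 0.08 (edgeR adjusted p = 0.0734) in old and -0.0048 ± 0.09 (edgeR adjusted p = 0.973) in young mice, and reloading lowered it, at -0.47 ± 0.10 (edgeR adjusted p = 0.000107) in old and -0.32 ± 0.10 (edgeR adjusted p = 0.00956) in young mice. Slc25a13 had 6.27, 11.9, 9.19 and 11.8 CPM in old reloaded mice, 2.73 to 5.55 CPM (median 3.74) in old unloaded mice and 4.89 to 8.30 CPM (median 7.07) in old controls. In young mice Slc25a13 had 4.93, 2.87, 4.45 and 4.77 CPM in young reloaded mice, 2.59, 2.81, 1.75 and 2.13 CPM in young unloaded mice and 3.49 to 5.51 CPM (median 4.66) in young controls. Every reloaded mouse lay above every unloaded mouse of its age. Unloading lowered it, at -0.80 ± 0.15 in old and -0.9999 ± 0.19 in young mice, and reloading raised it by 1.34 ± 0.18 (edgeR adjusted p = 1.4e-07) in old and 0.88 ± 0.21 (edgeR adjusted p = 0.000903) in young mice. Old reloaded mice stood at 0.54 ± 0.16 (edgeR adjusted p = 0.00674) against old controls. This was 0.42 ± 0.18 (edgeR adjusted p = 0.0516) without old reloaded mouse 2, 0.43 ± 0.18 (edgeR adjusted p = 0.0527) without old reloaded mouse 4 and 0.19 ± 0.19 (edgeR adjusted p = 0.466) without the libraries with Alb above 20 CPM. Per length, Slc25a13 was 3.16% ± 0.691 of the pair in old reloaded mice, 0.928% ± 0.210 in old unloaded mice and 1.81% ± 0.381 in old controls (SD, n = 4, 6 and 9). It was 1.23% ± 0.360 in young reloaded mice, 0.533% ± 0.129 in young unloaded mice and 1.06% ± 0.157 in young controls (SD, n = 4, 4 and 9).

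Slc25a22, a glutamate carrier, fell with unloading, at -0.76 ± 0.20 (edgeR adjusted p = 0.00287) in old and -0.75 ± 0.24 (edgeR adjusted p = 0.011) in young mice, and the young value was -0.67 ± 0.27 (edgeR adjusted p = 0.0505) without young unloaded mouse 4. The other glutamate carrier, Slc25a18, lay between 0.0283 and 0.919 CPM and was called in no comparison with all libraries in the fit. Of 6 enzymes of the malate-aspartate and glycerophosphate shuttles, 4 fell and 1 rose in old unloaded mice, and 4 fell and 2 rose in young unloaded mice. Of all tested genes, 23.2% fell and 19.5% rose in old, and 21.7% fell and 19.1% rose in young unloaded mice. Mdh1, the cytosolic malate dehydrogenase, gave -0.74 ± 0.10 (edgeR adjusted p = 4.32e-07) in old and -1.09 ± 0.12 (edgeR adjusted p = 7.87e-09) in young mice. Gpd2, the mitochondrial glycerophosphate dehydrogenase, rose by 0.33 ± 0.10 in old and 0.44 ± 0.12 in young mice.

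The ATP-Mg/phosphate carriers, which are switched by calcium and adjust the adenine nucleotides of the matrix, include Slc25a23, Slc25a24 and Slc25a25. Slc25a25 was not called on unloading, on reloading or in reloaded against control mice at either age. It had 14.3, 16.8, 11.7 and 14.3 CPM in old reloaded mice and 16.3, 14.7, 17.7 and 16.6 CPM in young reloaded mice. Slc25a23 had 15.6, 17.6, 14.1 and 18.2 CPM in old reloaded mice, 6.06 to 9.12 CPM (median 7.40) in old unloaded mice and 12.8 to 16.7 CPM (median 15.8) in old controls. In young mice Slc25a23 had 15.7, 29.1, 14.6 and 16.6 CPM in young reloaded mice, 8.09, 7.79, 6.36 and 8.06 CPM in young unloaded mice and 11.1 to 17.3 CPM (median 13.6) in young controls. Every unloaded mouse lay below every reloaded and control mouse of its age. Unloading lowered it, at -1.04 ± 0.12 (edgeR adjusted p = 1.58e-08) in old and -0.89 ± 0.14 (edgeR adjusted p = 2.86e-06) in young mice, and reloading raised it by 1.13 ± 0.14 in old and 1.33 ± 0.16 in young mice. Young reloaded mice stood at 0.43 ± 0.13 (edgeR adjusted p = 0.00438) against young controls, or 0.14 ± 0.11 (edgeR adjusted p = 0.284) without young reloaded mouse 2. Slc25a24 rose on reloading by 0.50 ± 0.15 (edgeR adjusted p = 0.00608) in old and 0.61 ± 0.17 (edgeR adjusted p = 0.00307) in young mice, and the old value was 0.37 ± 0.16 (edgeR adjusted p = 0.0598) without old reloaded mouse 3.

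Slc25a34, whose substrate is not settled, had the lowest fold change of the members on unloading in young mice. It had 15.8, 17.2, 20.5 and 25.5 CPM in old reloaded mice, 19.7 to 37.5 CPM (median 25.99) in old unloaded mice and 35.05 to 85.6 CPM (median 43.1) in old controls. In young mice Slc25a34 had 14.0, 21.9, 15.2 and 11.4 CPM in young reloaded mice, 18.2, 18.003, 16.4 and 14.9 CPM in young unloaded mice and 29.98 to 86.0 CPM (median 48.5) in young controls. All young unloaded and reloaded mice lay below all young controls, and old unloaded mice overlapped old controls. Unloading lowered it, at -1.05 ± 0.22 (edgeR adjusted p = 0.000245) in old and -1.66 ± 0.27 (edgeR adjusted p = 7.14e-06) in young mice, and reloaded mice stood at -1.48 ± 0.27 against old controls and -1.77 ± 0.27 against young controls. Old controls numbered 7 to 9 had 70.4 to 85.6 CPM and those numbered 1 to 6 had 35.05 to 65.4 CPM, while young controls numbered 7 to 9 had 29.98 to 40.6 CPM and those numbered 1 to 6 had 45.3 to 86.0 CPM. In old unloaded mice Slc25a34 was -0.70 ± 0.18 with controls numbered 1 to 6 alone, where Slc25a23 was -1.02 ± 0.14. The labels do not say what the control numbers stand for, and the part of a batch in these values was not tested. With controls numbered 1 to 6 alone, the difference between the ages in the response to unloading was 1.20 ± 0.27 (edgeR adjusted p = 0.0453), and with all controls it was 0.61 ± 0.33 (edgeR adjusted p = 0.552).

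Among the other members of less settled substrate, Slc25a35 was lower in reloaded mice than in controls, at -0.59 ± 0.16 in old and -0.52 ± 0.16 in young mice. Slc25a46, a member of the outer membrane that takes part in mitochondrial fusion and fission, fell with unloading, at -0.25 ± 0.07 (edgeR adjusted p = 0.0026) in old and -0.32 ± 0.08 (edgeR adjusted p = 0.00089) in young mice, and with controls numbered 1 to 6 the old value was -0.15 ± 0.06 (edgeR adjusted p = 0.0672). Slc25a53 reached at most 1.18 CPM.

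Of the 9 carriers of cofactors and nucleotides, 7 were lower in old reloaded mice than in old controls and 8 were lower in young reloaded mice than in young controls, with 0 higher at either age; 21.1% and 22.9% of all tested genes were lower in old and young mice. Slc25a16, linked to coenzyme A in mitochondria, had 21.8, 24.3, 21.8 and 22.3 CPM in old reloaded mice, 32.1 to 37.4 CPM (median 34.6) in old unloaded mice and 24.0 to 27.7 CPM (median 25.9) in old controls. In young mice Slc25a16 had 22.2, 18.5, 21.6 and 22.7 CPM in young reloaded mice, 36.1, 33.9, 36.5 and 35.8 CPM in young unloaded mice and 23.5 to 30.2 CPM (median 26.9) in young controls. All unloaded mice lay above all reloaded and control mice of their age. The rise with unloading was 0.43 ± 0.05 (edgeR adjusted p = 3.53e-08) in old and 0.42 ± 0.06 (edgeR adjusted p = 4.88e-07) in young mice, and the fall on reloading was -0.62 ± 0.06 in old and -0.74 ± 0.07 in young mice. Reloaded mice stood at -0.19 ± 0.06 against old controls and -0.33 ± 0.06 against young controls.

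Slc25a33 and Slc25a36 carry pyrimidine nucleotides for mitochondrial DNA and RNA. Slc25a33 had 9.68, 9.07, 7.87 and 6.94 CPM in old reloaded mice, 15.1 to 25.2 CPM (median 18.1) in old unloaded mice and 9.69 to 21.5 CPM (median 14.7) in old controls. In young mice Slc25a33 had 6.51, 8.31, 7.97 and 7.47 CPM in young reloaded mice, 12.4, 10.6, 13.2 and 14.2 CPM in young unloaded mice and 14.2 to 20.2 CPM (median 15.9) in young controls. Every reloaded mouse lay below every unloaded and control mouse of its age. On reloading it fell, at -1.18 ± 0.17 (edgeR adjusted p = 5.84e-07) in old and -0.74 ± 0.18 (edgeR adjusted p = 0.00111) in young mice. Its fall in young unloaded mice, -0.38 ± 0.15 (edgeR adjusted p = 0.0461), was lost on leaving out any 1 of 8 libraries, at values between -0.30 and -0.40. Slc25a36 had 44.6, 59.8, 50.1 and 57.8 CPM in old reloaded mice, 45.3 to 75.0 CPM (median 51.8) in old unloaded mice and 57.2 to 99.8 CPM (median 68.6) in old controls. In young mice Slc25a36 had 41.9, 33.1, 34.8 and 43.1 CPM in young reloaded mice, 71.2, 66.7, 55.6 and 67.6 CPM in young unloaded mice and 56.7 to 88.0 CPM (median 70.0) in young controls. All young reloaded mice lay below all young unloaded and control mice. It fell with unloading in old mice, at -0.42 ± 0.12 (edgeR adjusted p = 0.00439), and with reloading in young mice, at -0.77 ± 0.16 (edgeR adjusted p = 0.000148). Its changes on unloading in young mice and on reloading in old mice were not called. In edgeR neither response was called for a difference between the ages, and DESeq2 called that in reloading. Of the 50-base stretches of their transcripts, 12.6% for Slc25a33 and 11.8% for Slc25a36 also occur in other genes.

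Slc25a26, which imports S-adenosylmethionine for methylation in the matrix, fell with unloading, at -0.37 ± 0.07 in old and -0.58 ± 0.08 in young mice, and reloaded mice stood at -0.57 ± 0.08 against old and -0.68 ± 0.08 against young controls. Slc25a32, a folate carrier, gave -0.16 ± 0.06 (edgeR adjusted p = 0.0295) in old and -0.31 ± 0.07 (edgeR adjusted p = 0.000537) in young mice, and the old call was lost on leaving out any 1 of 7 libraries. Slc25a17, a peroxisomal carrier of cofactors, was lower in reloaded mice than in controls, at -0.66 ± 0.12 in old and -0.63 ± 0.12 in young mice. Slc25a51, which imports NAD+, was lower, at -0.25 ± 0.05 in old and -0.27 ± 0.05 in young reloaded mice.

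Slc25a42, a coenzyme A carrier, stood apart in 1 library. It had 5.55, 8.10, 5.59 and 7.17 CPM in old reloaded mice and 6.16, 28.2, 6.32 and 6.62 CPM in young reloaded mice. The fold change between the ages was -0.84 ± 0.30 (edgeR adjusted p = 0.0466), and without young reloaded mouse 2 it was 0.06 ± 0.18 (edgeR adjusted p = 0.881). The call was also lost without old reloaded mouse 1, at -0.76 ± 0.33 (edgeR adjusted p = 0.114), mouse 3, at -0.76 ± 0.33 (edgeR adjusted p = 0.114), or mouse 4, at -0.88 ± 0.34 (edgeR adjusted p = 0.0745). Young reloaded mouse 2 also had the highest Slc25a22 and Slc25a23 of the young reloaded mice. Against old controls, old reloaded mice gave -0.74 ± 0.26 (edgeR adjusted p = 0.0225), or -0.67 ± 0.30 (edgeR adjusted p = 0.0753) without old reloaded mouse 1 and -0.67 ± 0.30 (edgeR adjusted p = 0.0743) without old reloaded mouse 3.

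Slc25a20 passes acylcarnitines into the matrix for fatty acid oxidation. It had 66.6, 70.1, 81.2 and 83.4 CPM in old reloaded mice, 73.0 to 86.2 CPM (median 77.7) in old unloaded mice and 78.4 to 130.2 CPM (median 99.8) in old controls. In young mice Slc25a20 had 65.0, 69.1, 67.8 and 74.6 CPM in young reloaded mice, 70.7, 80.8, 75.3 and 80.1 CPM in young unloaded mice and 92.4 to 124.6 CPM (median 102.4) in young controls. All young unloaded and reloaded mice lay below all young controls, and old unloaded mice overlapped old controls. Unloading lowered it, at -0.37 ± 0.09 (edgeR adjusted p = 0.000863) in old and -0.47 ± 0.10 (edgeR adjusted p = 0.000399) in young mice, and reloaded mice stood at -0.44 ± 0.10 against old and -0.62 ± 0.10 against young controls. The carnitine acyltransferases on either side of it fell as well: Cpt1b, at -0.44 ± 0.10 in old and -0.54 ± 0.11 in young unloaded mice, and Cpt2, at -0.47 ± 0.10 in old and -0.73 ± 0.12 in young unloaded mice. Among amino acid carriers, Slc25a15, for ornithine, fell with unloading, at -0.35 ± 0.07 in old and -0.46 ± 0.08 in young mice. Slc25a29, for basic amino acids, was lower in reloaded mice than in controls, at -0.66 ± 0.17 in old and -0.59 ± 0.17 in young mice. Slc25a38, for glycine in haem synthesis, fell on reloading, at -0.41 ± 0.08 in old and -0.51 ± 0.08 in young mice. Slc25a44, for branched-chain amino acids, fell on reloading, at -0.26 ± 0.05 in old and -0.18 ± 0.06 in young mice. Slc25a45 rose on reloading by 0.42 ± 0.13 in old and 0.61 ± 0.14 in young mice, or 0.37 ± 0.17 (edgeR adjusted p = 0.0704) in old mice without the libraries with Alb above 20 CPM, at levels of at most 2.60 CPM. The tested members called in none of the 9 comparisons within or between ages were Slc25a2, Slc25a18, Slc25a37 and Slc25a47. With controls numbered 1 to 6 alone, 2 of these were called higher in old than in young controls. Slc25a18 gave 1.77 ± 0.42 (edgeR adjusted p = 0.00285), at levels of at most 0.919 CPM, and Slc25a37 gave 0.40 ± 0.13 (edgeR adjusted p = 0.0276).

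Slc25a1, the citrate carrier that supplies carbon for fat synthesis, was the 1 member called for a difference between the ages in the response to reloading, where 0.778% of all genes were (0.492% higher and 0.286% lower). It had 5.47, 15.3, 6.77 and 8.17 CPM in old reloaded mice, 3.53 to 4.98 CPM (median 3.86) in old unloaded mice and 2.45 to 6.33 CPM (median 3.70) in old controls. In young mice Slc25a1 had 5.99, 5.81, 5.07 and 3.86 CPM in young reloaded mice, 8.41, 8.51, 4.61 and 5.61 CPM in young unloaded mice and 2.81 to 4.47 CPM (median 3.77) in young controls. Every old reloaded mouse lay above every old unloaded mouse, young reloaded and unloaded mice overlapped, and every young unloaded mouse lay above every young control. Reloading gave 1.14 ± 0.24 (edgeR adjusted p = 0.000141) in old and -0.39 ± 0.26 (edgeR adjusted p = 0.228) in young mice, a difference between the ages of 1.53 ± 0.35 (edgeR adjusted p = 0.0293). Unloading raised it in young mice, by 0.87 ± 0.22 (edgeR adjusted p = 0.00176). Old reloaded mice stood at 1.20 against old controls, though the groups overlapped. That call held whichever library was left out, at values between 0.81 and 1.38. It also held without the libraries with Alb above 20 CPM. The difference between the ages missed the threshold without old reloaded mouse 2, at 1.15 ± 0.32 (edgeR adjusted p = 0.0641), and without old reloaded mouse 4, at 1.58 ± 0.37 (edgeR adjusted p = 0.052). The same held without young reloaded mouse 3, at 1.54 ± 0.38 (edgeR adjusted p = 0.0532), and without young reloaded mouse 4, at 1.42 ± 0.37 (edgeR adjusted p = 0.0505). It also held without young unloaded mouse 1, at 1.43 ± 0.37 (edgeR adjusted p = 0.066), and without young unloaded mouse 2, at 1.41 ± 0.37 (edgeR adjusted p = 0.0691). Without the 6 libraries with Alb above 20 CPM the difference was 1.04 ± 0.40 (edgeR adjusted p = 0.297), and the rise in old mice was 0.55 ± 0.27 (edgeR adjusted p = 0.0961). DESeq2 called 2 members, Slc25a1 and Slc25a36, and 5 members had an unadjusted p under 0.05 in edgeR.

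Liver markers also differed between these groups. All 8 were higher in old reloaded than in old unloaded mice, where 27.8% of all tested genes were. Their sums were 0.363 to 2582 CPM against 0.357 to 75.1 CPM. Alb was at 0.195, 1743, 9.19 and 153.6 CPM in old reloaded mice 1 to 4. In young mice the liver markers summed to 1.49 to 114.2 CPM in reloaded and 0.320 to 67.5 CPM in unloaded mice. Slc25a47, a carrier found mainly in liver, had 1.84, 9.91, 1.94 and 2.82 CPM in old reloaded mice and 2.25 to 3.98 CPM (median 3.098) in old unloaded mice. Old reloaded mouse 2 had the highest value of all 36 libraries for Slc25a47, Slc25a1 and Slc25a10. Slc25a10, the dicarboxylate carrier, gave 0.51 ± 0.15 (edgeR adjusted p = 0.00578) on reloading in old mice, or 0.25 ± 0.15 (edgeR adjusted p = 0.15) without that mouse. Slc25a15 gave 0.23 ± 0.08 (edgeR adjusted p = 0.0186) on reloading in old mice, or 0.07 ± 0.07 (edgeR adjusted p = 0.444) without it. The rise of Slc25a13 on reloading in old mice was 1.22 ± 0.19 (edgeR adjusted p = 2.28e-06) without it. Old reloaded mouse 4, with Alb at 153.6 CPM and Slc25a13 at 11.8 CPM, stayed in that fit. The call was also kept when every library with Alb above 20 CPM was left out. The part of liver in these values was not tested.

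**Figure D5:**
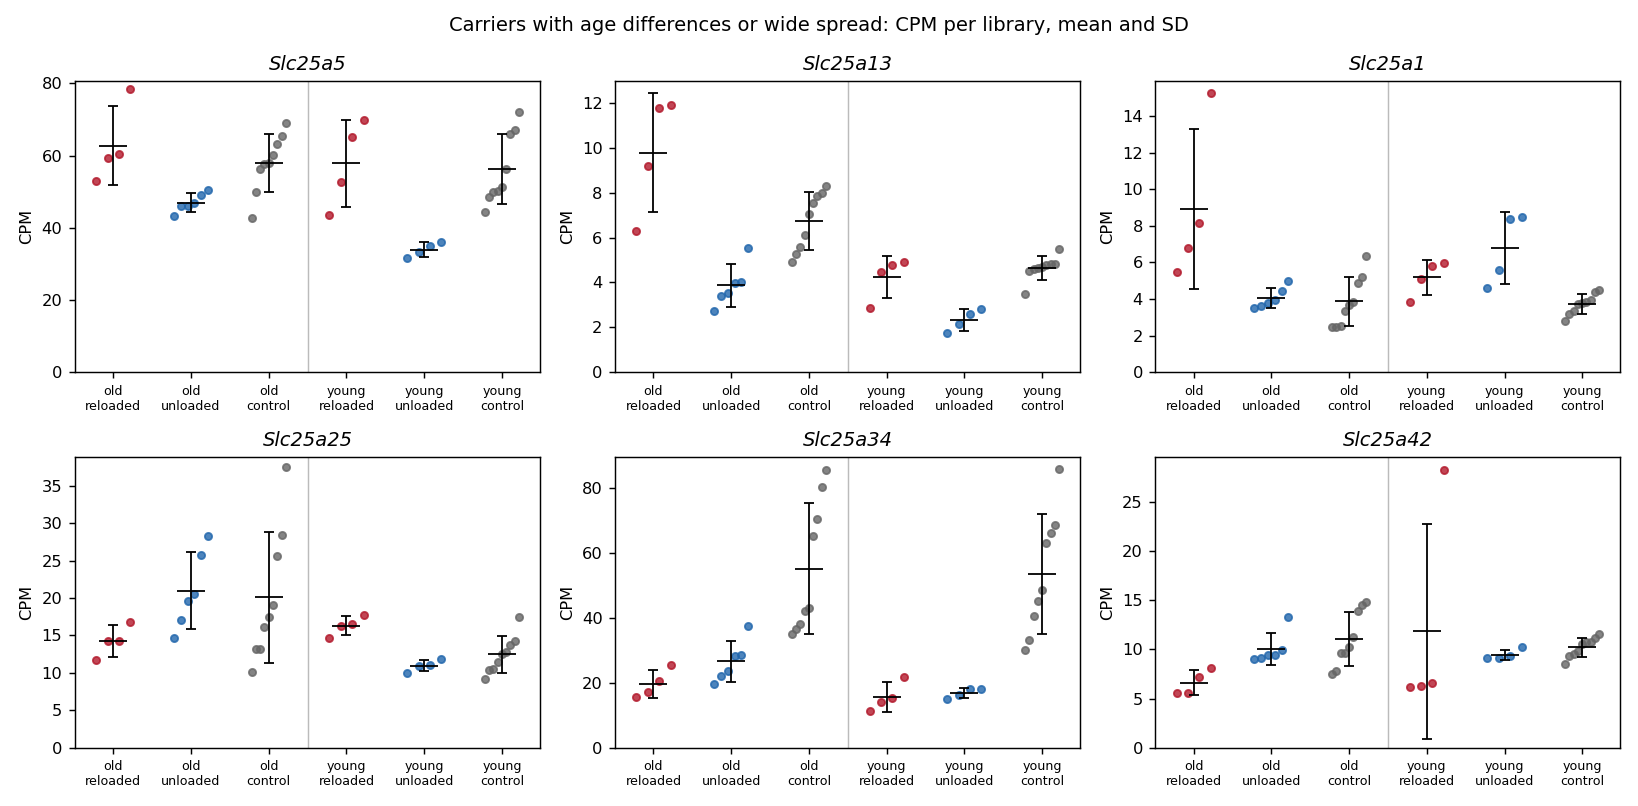
CPM of 6 carriers in every library, with old mice left of young mice; points are mice and bars the mean and SD. Old reloaded mice lie above young reloaded mice for Slc25a13, 1 old reloaded mouse stands high for Slc25a1, 1 young reloaded mouse stands high for Slc25a42, and controls are spread widely for Slc25a34.

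Between the control groups the share of members called for age, 22.0%, was near that of all tested genes. In old against young controls, 2 members were called higher and 7 lower, where 12.1% and 11.6% of all tested genes were (23.7% in either direction). Those higher were Slc25a13, at 0.54 ± 0.13 (edgeR adjusted p = 0.00334), and Slc25a25, an ATP-Mg/phosphate carrier, at 0.69 ± 0.17 (edgeR adjusted p = 0.00415). Slc25a25 ranged from 10.2 to 37.5 CPM in old controls and from 9.14 to 17.5 CPM in young controls. Those lower included Slc25a11 at -0.39 ± 0.06, Slc25a26 at -0.33 ± 0.06, Slc25a4 at -0.25 ± 0.07, Slc25a12 at -0.25 ± 0.07, Slc25a15 at -0.19 ± 0.06 and Slc25a51 at -0.15 ± 0.04. For 0 of the 41 members, and 2.50% of all tested genes, did old and young controls separate without overlap. With controls numbered 1 to 6 alone, Slc25a13 was 0.44 ± 0.17 (edgeR adjusted p = 0.0623) and Slc25a25 0.55 ± 0.21 (edgeR adjusted p = 0.052). In the same subset Slc25a3 was -0.31 ± 0.09 (edgeR adjusted p = 0.0115), Slc25a20 -0.29 ± 0.07 (edgeR adjusted p = 0.00305) and Slc25a34 -0.54 ± 0.17 (edgeR adjusted p = 0.0234), where all controls gave -0.17 ± 0.08, -0.05 ± 0.08 and 0.04 ± 0.19, none called. Old controls numbered 7 to 9 lay above those numbered 1 to 6 for Slc25a4 (2839 to 3049.6 CPM, against 1996 to 2829 CPM), Slc25a3 (728.3 to 797.9 CPM, against 512.7 to 675.3 CPM) and Slc25a20 (117.4 to 130.2 CPM, against 78.4 to 103.0 CPM).

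In unloaded mice, 4 members were called higher and 1 lower in old than in young mice, where 4.64% and 5.16% of all tested genes were (9.81% in either direction). Slc25a25 had 14.7 to 28.3 CPM (median 20.1) in old unloaded mice and 11.9, 10.9, 10.0 and 11.0 CPM in young unloaded mice, without overlap. The fold change was 0.94 ± 0.24 (edgeR adjusted p = 0.0125), or 0.94 ± 0.30 (edgeR adjusted p = 0.0607) without the libraries with Alb above 20 CPM. Of its 50-base stretches, 8.02% also occur in transcripts of Naif1, and the sources used here do not say whether counting used strand. The other calls each ended when 1 library was left out. Slc25a13 was 0.74 ± 0.20 (edgeR adjusted p = 0.0144), or 0.62 ± 0.21 (edgeR adjusted p = 0.0743) without young unloaded mouse 3. Slc25a33 was 0.59 ± 0.16 (edgeR adjusted p = 0.0188), or 0.49 ± 0.16 (edgeR adjusted p = 0.0556) without old unloaded mouse 4, 0.57 ± 0.18 (edgeR adjusted p = 0.0522) without young unloaded mouse 1 and 0.51 ± 0.18 (edgeR adjusted p = 0.0907) without young unloaded mouse 2. Slc25a5 was 0.47 ± 0.13 (edgeR adjusted p = 0.0216), or 0.45 ± 0.15 (edgeR adjusted p = 0.0676) without young unloaded mouse 2 and 0.43 ± 0.15 (edgeR adjusted p = 0.0743) without young unloaded mouse 3. Slc25a1 was lower, at -0.75 ± 0.24 (edgeR adjusted p = 0.0408), a call lost on leaving out any 1 of 6 libraries, at values between -0.63 and -0.74.

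In reloaded mice, 3 members were called higher and 1 lower in old than in young mice, where 10.0% and 9.67% of all tested genes were (19.7% in either direction). Slc25a13 was called at 1.20 ± 0.20 (edgeR adjusted p = 0.000154), with every old mouse above every young mouse, and the call held whichever library was left out. Without the libraries with Alb above 20 CPM, which leaves 2 mice a group, it was 0.75 ± 0.25 (edgeR adjusted p = 0.0785). Slc25a36 was 0.47 ± 0.16 (edgeR adjusted p = 0.0327), and missed the threshold at 0.41 ± 0.17 without old reloaded mouse 2, 0.43 ± 0.17 without old reloaded mouse 4, 0.41 ± 0.17 without young reloaded mouse 2 and 0.44 ± 0.17 without young reloaded mouse 3. Slc25a1 was 0.78 ± 0.26 (edgeR adjusted p = 0.0326), or 0.39 ± 0.24 (edgeR adjusted p = 0.287) without old reloaded mouse 2, 0.78 ± 0.29 (edgeR adjusted p = 0.0629) without young reloaded mouse 3 and 0.67 ± 0.28 (edgeR adjusted p = 0.0979) without young reloaded mouse 4. The member called lower was Slc25a42, a call lost on leaving out any 1 of 4 libraries.

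Most genes of the machinery that inserts carriers into the inner membrane fell under unloading, 8 of 9 in old and 7 of 9 in young mice, where 23.2% and 21.7% of all tested genes did. Timm8a1 and Timm10, chaperones of the intermembrane space, gave -0.72 ± 0.10 and -0.79 ± 0.13 in old mice, and -1.02 ± 0.12 and -1.11 ± 0.16 in young mice. Timm22, the channel of the carrier translocase, fell, at -0.68 ± 0.08 in old and -0.74 ± 0.10 in young mice, and rose on reloading by 0.58 ± 0.10 in old and 0.62 ± 0.11 in young mice. Among 24 other gates of the mitochondrial membranes, 3 rose and 14 fell with unloading in old mice, and 3 rose and 14 fell in young mice. Of all tested genes, 19.5% rose in old and 19.1% in young unloaded mice. Vdac1, the main pore of the outer membrane, rose by 0.32 ± 0.08 in old and 0.31 ± 0.09 in young mice on unloading and fell, at -1.03 ± 0.10 in old and -1.08 ± 0.11 in young mice on reloading. Of the pyruvate carrier subunits, Mpc2 fell with unloading, at -0.50 ± 0.10 in old and -0.60 ± 0.11 in young mice. Mpc1 gave 0.07 ± 0.06 in old and -0.09 ± 0.07 in young unloaded mice, neither called, and fell on reloading, at -0.58 ± 0.08 in old and -0.92 ± 0.08 in young mice. Mtch1, a relative of the carriers in the outer membrane, fell with unloading, at -0.34 ± 0.05 in old and -0.37 ± 0.06 in young mice and rose on reloading by 0.34 ± 0.06 in old and 0.26 ± 0.07 in young mice. Its relative Mtch2 gave -0.11 ± 0.04 in old and -0.06 ± 0.04 in young unloaded mice, called in old mice alone.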

How the data were processed

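RNA-seq of 36 soleus libraries, 1 per mouse, was analysed in 6 groups of 4 to 9 mice. The deposited table lists, per the file headers, reads and RPKM for 31668 transcripts. The reads are estimated counts, since 55.68% of the deposited transcript values and 94.94% of gene sums were whole within 0.01. The RPKM values are the authors' and were summed per gene, only to compare levels between genes. Per the submitters' processing notes the tools were TopHat, TopHat2 2.0.1, Partek 6.6 and DESeq, with mm10; filters and the use of strand are not given in the sources used here, and the labels' protocols name a TruSeq RNA kit and a stranded total RNA kit. Symbols turned into dates in 56 rows were restored.

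Reads were summed over symbols (21156 genes) and rounded to whole numbers. edgeR 4.0.16 (R 4.3.3, limma 3.58.1) was used with TMM scaling, filterByExpr and 1 quasi-likelihood model with 6 group coefficients (30 residual degrees of freedom, biological coefficient of variation 0.149). The 12 comparisons were unloading, reloading after unloading and reloaded against control at each age, age within each treatment, and the differences between the ages. P-values were adjusted over all 15031 genes tested. SEs were derived from the fold change and F. CPM use TMM-scaled totals. Libraries held 32.0 to 37.9 M reads, and no pair of the 105 within groups agreed within sampling noise (lowest chi-square per degree of freedom 8.93). The script was tested on simulated data. No row was mitochondrially encoded. Alternatives were DESeq2 1.42.0, its size factors, other filters, only the groups compared, a replicate block, the most abundant transcript, leaving out each library or those above 20 CPM of Alb, and controls numbered 1 to 6. Members with values in the text were the 6 with the smallest p among those called in a comparison, those called and changed at least 2-fold, and Slc25a3, Slc25a4, Slc25a5, Slc25a12, Slc25a13, Slc25a20 and Slc25a25; the other members are given by count or, where named, were added to show a role. The members and lists were chosen with earlier results of these data known. Promoters are from RefSeq. For 1 member, counted in the totals, single values are not reported here.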

Additional observations from a re-analysis of the deposited data

Results flagged for a closer look

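In 15 of 246 sets of values (1 member in 1 group), the highest or lowest mouse lay far from the others of its group by Dixon's criterion. Chance marks about 1 in 20 such sets. Young reloaded mouse 2 accounted for 5 of them. Slc25a3 was at 621.4 CPM in old unloaded mouse 1, where the others of the group had 382.9 to 467.2 CPM. Slc25a10 was at 7.11 CPM in old unloaded mouse 2, where the others of the group had 5.54 to 6.03 CPM. Slc25a12 was at 363.7 CPM in young unloaded mouse 1, where the others of the group had 421.8 to 424.5 CPM. Slc25a13 was at 3.49 CPM in young control 7, where the others of the group had 4.49 to 5.51 CPM. Slc25a18 was at 0.919 CPM in young control 7, where the others of the group had 0.0283 to 0.301 CPM. Slc25a15 was at 18.3 CPM in young reloaded mouse 2, where the others of the group had 16.6 to 16.7 CPM. Slc25a22 was at 28.3 CPM in young reloaded mouse 2, where the others of the group had 12.2 to 14.7 CPM. Slc25a23 was at 29.1 CPM in young reloaded mouse 2, where the others of the group had 14.6 to 16.6 CPM. Slc25a35 was at 2.35 CPM in young reloaded mouse 2, where the others of the group had 1.35 to 1.52 CPM. Slc25a42 was at 28.2 CPM in young reloaded mouse 2, where the others of the group had 6.16 to 6.62 CPM. Slc25a18 was at 0.766 CPM in old control 9, where the others of the group had 0.109 to 0.442 CPM. Slc25a24 was at 10.8 CPM in old control 5, where the others of the group had 5.68 to 7.45 CPM. Slc25a35 was at 1.63 CPM in young unloaded mouse 3, where the others of the group had 2.00 to 2.06 CPM. Slc25a42 was at 13.3 CPM in old unloaded mouse 3, where the others of the group had 9.02 to 9.88 CPM. Slc25a47 was at 9.91 CPM in old reloaded mouse 2, where the others of the group had 1.84 to 2.82 CPM. The response of Slc25a1 to reloading differed between the ages by 1.53 ± 0.35 (edgeR adjusted p = 0.0293) on the log2 scale, old minus young, and the libraries that decide this call are named with its values in the results.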

How the results depend on the processing

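The counts of members called in the 6 loading comparisons and between the control groups stayed within 1.5 times under every alternative run. Leaving out 1 library gave 19 to 22 and 19 to 23 calls for unloading in old and young mice, 20 to 25 and 16 to 21 for reloading after unloading, 21 to 27 and 23 to 25 for reloaded against control mice, and 9 to 12 for age in controls. The smaller counts moved. For age in unloaded mice (5 calls) leaving out 1 library gave 2 to 6, and the set without libraries above 20 CPM of Alb gave 1. For age in reloaded mice (4 calls) leaving out 1 library gave 2 to 4, the fit of only the groups compared 1, and the set without libraries above 20 CPM of Alb 0. For the difference between the ages in unloading (0 calls), controls numbered 1 to 6 gave 1. For that in reloading (1 call) DESeq2 gave 2, only the groups compared 0, the set without libraries above 20 CPM of Alb 0, and leaving out 1 library 0 to 1. For that in reloaded against control mice (0 calls) DESeq2 gave 1, controls numbered 1 to 6 gave 2, and leaving out 1 library 0 to 2. The cause was not tested. Over all genes, the differences between the ages gave 0 calls in edgeR and 8 in DESeq2 for unloading, 117 calls in edgeR and 399 in DESeq2 for reloading and 724 calls in edgeR and 1207 in DESeq2 for reloaded against control mice. The subset of controls numbered 1 to 6 was chosen after seeing the data.

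Of the 155 single calls, 153 of 155 held with DESeq2, 152 of 155 with DESeq2 size factors in edgeR, 149 of 155 with no filter and 136 of 141 with a stricter one. With only the groups compared 142 of 155 held, with the most abundant transcript 143 of 155, without libraries above 20 CPM of Alb 128 of 155, and with controls numbered 1 to 6 142 of 155. Of 1910 values with 1 library left out, 1798 kept the call, 111 lost it and 1 turned its direction: Slc25a42 for age in reloaded mice, whose values with 1 library left out ran from -1.05 without young reloaded mouse 1 to 0.056 without young reloaded mouse 2. Low depth limits Slc25a2, Slc25a14, Slc25a18, Slc25a35, Slc25a45 and Slc25a53 and the 6 members not tested.

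Mouse numbers are shared between groups. Over 69 same-numbered pairs the median correlation of deviations from the group means was 0.006 (range -0.417 to 0.437), with 15 pairs above 0.1. Between mice of other numbers the median was 0. The main fit did not pair the samples, and whether some numbers share a batch was not tested. With the replicate block the counts were 20 and 22 for unloading in old and young mice, 23 and 18 for reloading, 23 and 23 for reloaded against control mice, 9, 5 and 3 for age in control, unloaded and reloaded mice, and 0, 1 and 0 for the differences between the ages; 145 of 155 single calls held under the block.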
